A study of Mus musculus with 2 samples.

Results

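The integrated stress response is the programme by which a cell slows protein synthesis and turns on a set of rescue genes. Kinases that sense unfolded protein, missing amino acids, double-stranded RNA or heme loss phosphorylate the alpha subunit of the initiation factor eIF2. General translation then falls, while the mRNAs of Atf4, Atf5 and a few other genes are translated better, and ATF4 switches on genes for amino acid supply, redox balance and the recovery of translation. In liver the same programme is known for the secreted factors FGF21 and GDF15.

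The genes described here are 10 members of this programme, chosen by name from general knowledge, out of 35275 genes listed for each library. They are the transcription factors Atf4, Atf5, Ddit3 and Atf3, the feedback regulators Trib3 and Ppp1r15a, the metabolic targets Asns and Chac1, and the secreted factors Fgf21 and Gdf15. All 10 were found in the annotation by symbol, and 9 of them had at least 10 reads over both libraries.

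RNAseq compared control AML12 cells, titled Young and untreated, with senescent AML12 cells, titled Old and exposed to hydrogen peroxide (H2O2). AML12 is a non-transformed hepatocyte line from a mouse carrying a human TGF-alpha transgene, and the labels give strain CD-1, liver, male, 3 months for both samples. The senescent cells met peroxide daily on 6 days, for 1 h in serum-free medium, first at 1 mM and then at 750 μM, and recovered for 23 h in complete medium each time. The complete medium held serum, insulin, transferrin, selenium and dexamethasone. The comparison concerns 1 line, and each condition is 1 library made from the pooled RNA of 3 samples, so the values compare 2 libraries, the differences have no replicate check and no p-value is given.

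Counted reads came to 28021941 on 17403 genes for the control and to 25738075 on 17592 genes for the senescent library. Reads were scaled by edgeR's TMM method, and each difference is a log2 ratio of senescent over control with a 95% Clopper-Pearson interval. These intervals cover counting error only and leave out variation between cultures and library preparations. Amplified reads with no molecular identifier do not each stand for a molecule, so the intervals may be too narrow even for counting error. To be called higher or lower, a gene needed a log2 ratio past 1.5, the threshold the study used, with 0 outside its interval and 10 or more reads in the 2 libraries together. The median log2 ratio over the 14383 genes tested was -0.02, and total-count scaling moved it by -0.11. Of the 10 hepatocyte markers, Krt8, Krt18, Hnf4a, Apob and Ttr were abundant in both libraries. Few reads fell on Trf (26 and 17), Fga (8 and 34), Asgr1 (2 and 1) and Cyp2e1 (0 and 50), and Fga and Cyp2e1 were called higher. Albumin mRNA (Alb) had 32076 control reads and 2917 senescent ones and was called lower. The 5 cholangiocyte markers summed to 1024 control CPM and 1001 senescent CPM (CPM is the read count relative to the TMM-scaled library size). Krt19 had 22885 and 19177 reads, Sox9 had 3602 and 4454, Krt7 had 3248 and 1026, Cftr had 44 and 176, and Epcam had 0 and 1, with log2 ratios of -1.43 for Krt7, 0.54 for Sox9 and 2.20 for Cftr, which was called higher. The part of these markers in the results was not tested.

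The promoters of these genes are shown because ATF4, paired with a C/EBP protein, binds a composite element whose core was searched as TGATGNAA on both strands. The windows are the RefSeq promoters of build GRCm38.p6, from 250 bases before to 50 bases after the start site, and all 10 genes had one. The other motifs searched were the cAMP response element TGACGTCA and the endoplasmic reticulum (ER) stress response element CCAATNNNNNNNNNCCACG, also on both strands. Capitals mark the match, every stretch is written 5′ to 3′ on the strand of its gene, and a core read on the opposite strand appears as its reverse complement.
Chac1: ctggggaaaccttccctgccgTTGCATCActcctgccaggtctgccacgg
Asns: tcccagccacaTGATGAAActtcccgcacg
Trib3: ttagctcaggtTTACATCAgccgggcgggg
Atf3: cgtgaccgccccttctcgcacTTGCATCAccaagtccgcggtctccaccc
Fgf21: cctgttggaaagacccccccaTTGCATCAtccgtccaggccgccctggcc
Ppp1r15a: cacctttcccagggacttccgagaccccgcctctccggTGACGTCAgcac
Slc7a11: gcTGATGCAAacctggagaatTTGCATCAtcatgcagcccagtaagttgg

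The core was found in promoters of 5 of the 10 genes, Chac1, Asns, Trib3, Atf3 and Fgf21. Counted per window and not per gene, it was in 1304 of 32851 promoters of the same length (3.97%). In Chac1 the match began 193 bases before the start, within chr2:119351028-119351077 on the plus strand. The Asns match began 23 bases before the start, within chr6:7693214-7693243 on the minus strand. In Trib3 it lay 15 bases after the start, within chr2:152344028-152344057 on the minus strand. All these starts are those of RefSeq and differ from the ends of the gene spans given below. By those spans, the Asns and Atf3 matches lie inside the gene and the Trib3 match lies before it. Chac1, Atf3 and Fgf21 carried the same letters, TTGCATCA, whereas Asns and Trib3 each had a form of their own.

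The Atf3 match began 110 bases before the RefSeq start, within chr1:191183415-191183464 on the minus strand, and the Fgf21 match 139 bases before it, within chr7:45615601-45615650 on the minus strand. Ppp1r15a had no composite core and was the one gene of the 10 with the cAMP response element, 12 bases before its start, within chr7:45526269-45526318 on the minus strand. That element stood in 588 of all promoters (1.79%). Atf4, Atf5, Ddit3 and Gdf15 held none of the 3 motifs in these windows, and the ER stress response element was in none of the 10. The cystine transporter gene Slc7a11, described below with the transporters, is shown for its 2 cores within chr3:50443632-50443681 on the minus strand, which began 66 and 47 bases before the start. The 10 genes were chosen as members of the programme, so their share with a core is not independent of that choice. These are matches of letters, and binding was not measured.

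As a group the 10 genes took 16676 control reads and 29699 senescent reads, which is 573 and 1197 CPM. All 9 genes tested had a ratio above 0, with a median log2 ratio of 1.17, against 7038 of 14383 genes above 0 in the whole table. One gene, Chac1, was called higher past 1.5 and 0 were called lower, where 2.71% of all genes tested were called higher and 5.60% lower. Past a log2 ratio of 1 the count was 5 of 9, namely Chac1, Atf4, Ppp1r15a, Asns and Trib3, against 5.09% of all genes higher and 9.98% lower. The interval lay above 0 for 8 of the 9, where it lay above 0 for 34.0% of all genes and below 0 for 34.6%. An interval is narrower where there are more reads. The 9 genes had 456 to 15994 reads over both libraries, whereas these shares cover all genes from 10 reads, so depth was not matched. With 1 library per condition, no test of this group against other genes was made.

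**Figure D1:**
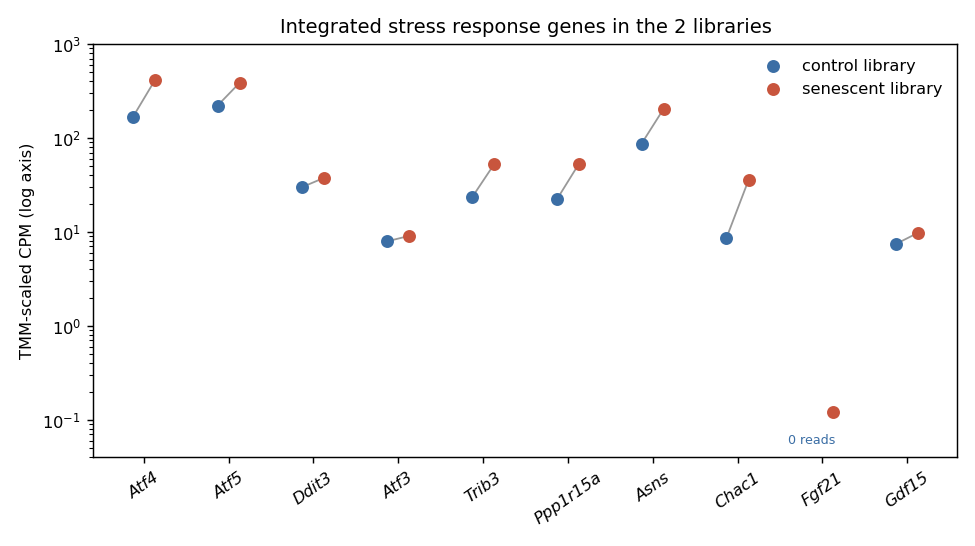
TMM-scaled CPM (log axis) of each integrated stress response gene in the control and the senescent library, 1 point per library, with a line joining the pair. Chac1 has the steepest line, from 8.63 to 35.6 CPM, while Atf3, Gdf15 and Ddit3 are nearly level and Fgf21 has 0 control reads and 3 senescent ones.

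Among the transcription factors, Atf4 and Atf5 had more senescent than control reads and Ddit3 and Atf3 had similar numbers in both libraries. Atf4 (ENSMUSG00000042406, chr15:80255184-80257541, plus strand), the central activator of the programme, had 4820 control reads and 10151 senescent ones, or 166 and 409 CPM. The senescent level was 2.47-fold the control level, a log2 ratio of 1.30 (1.25 to 1.35), and 3.69% of all genes tested had a higher ratio. The interval stayed above 1 and under the threshold of 1.5.

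Atf5 (ENSMUSG00000038539, chr7:44812256-44816658, minus strand) encodes a related factor whose mRNA is under the same translational control and which serves the mitochondrial stress response. It had 6426 control reads and 9568 senescent reads, or 221 and 386 CPM, a log2 ratio of 0.80 (0.76 to 0.85). Its ratio was lower than that of Atf4, and the counting intervals of these ratios did not overlap. By gene span, Atf5 overlaps Il4i1 on the opposite strand, which had 38 and 61 reads, and a gene model of Nup62 for which no count is given. How reads of such overlaps were assigned is not stated in the sources used here.

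Ddit3 (ENSMUSG00000025408, chr10:127290774-127296288, plus strand) encodes CHOP, the factor that couples lasting stress to cell death genes. It had 874 control reads and 936 senescent ones, or 30.1 and 37.7 CPM, a log2 ratio of 0.33 (0.19 to 0.46). The raw counts differed by little, and 26.4% of all genes had a higher ratio. Ddit3 overlaps the methionyl-tRNA synthetase gene Mars by 68 bases on the opposite strand, and a second Ddit3 model on its own strand has no row in the table, so its count is uncertain by the reads so shared.

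Atf3 (ENSMUSG00000026628, chr1:191170296-191218039, minus strand), an early stress factor that can repress its targets, had 231 control reads and 225 senescent reads. The levels were 7.94 and 9.07 CPM, and the log2 ratio was 0.19 (-0.08 to 0.46). Its interval held 0, so this depth did not show a difference, and 35.5% of all genes tested had a higher ratio.

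The feedback genes Trib3 and Ppp1r15a were both more than 2-fold higher in senescent AML12 cells. Trib3 (ENSMUSG00000032715, chr2:152337422-152344032, minus strand) encodes a pseudokinase that binds ATF4 and CHOP and holds AKT signalling back. It had 677 control and 1299 senescent reads, or 23.3 and 52.4 CPM, a log2 ratio of 1.17 (1.03 to 1.31). Ppp1r15a (ENSMUSG00000040435, chr7:45522916-45526268, minus strand) encodes GADD34, which brings protein phosphatase 1 to eIF2α and so ends the response. It had 644 control and 1314 senescent reads, a 2.39-fold higher CPM, and its log2 ratio was 1.26 (1.12 to 1.40). The counts of these 2 genes were close to each other in both libraries, and the counting intervals of their ratios overlapped. Ppp1r15a overlaps Tulp2 on the opposite strand, which had 5 and 1 reads.

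Of the metabolic targets, Chac1 was called higher and Asns lay between 1 and 1.5. Chac1 (ENSMUSG00000027313, chr2:119351229-119354381, plus strand), whose product degrades glutathione, had 251 control and 883 senescent reads, or 8.63 and 35.6 CPM. The senescent level was 4.11-fold the control level, a log2 ratio of 2.04 (1.84 to 2.25), the highest of the 9 genes. Its interval lay wholly above 1.5 and above the interval of every other member, and 1.43% of all genes tested had a higher ratio.

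Asns (ENSMUSG00000029752, chr6:7675169-7693254, minus strand) encodes asparagine synthetase, which makes asparagine from aspartate and glutamine. It had 2536 control reads and 5077 senescent reads, or 87.2 and 205 CPM, a log2 ratio of 1.23 (1.16 to 1.30). This was close to the ratios of Atf4, Ppp1r15a and Trib3, and the interval overlapped those of all 3.

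The secreted factors had few reads. Fgf21 (ENSMUSG00000030827, chr7:45613886-45615490, minus strand), a hormone that liver releases under nutrient stress, had 0 control reads and 3 senescent ones. A count of 0 allows up to 3 reads, so both libraries were at the floor and no fold is given. Gdf15 (ENSMUSG00000038508, chr8:70629393-70632456, minus strand), a TGF-beta family hormone that acts on food intake, had 217 control and 243 senescent reads, or 7.46 and 9.80 CPM. Its log2 ratio was 0.39 (0.12 to 0.66), above 0 but under the ratios of Atf5 and the 5 genes past 1.

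**Figure D2:**
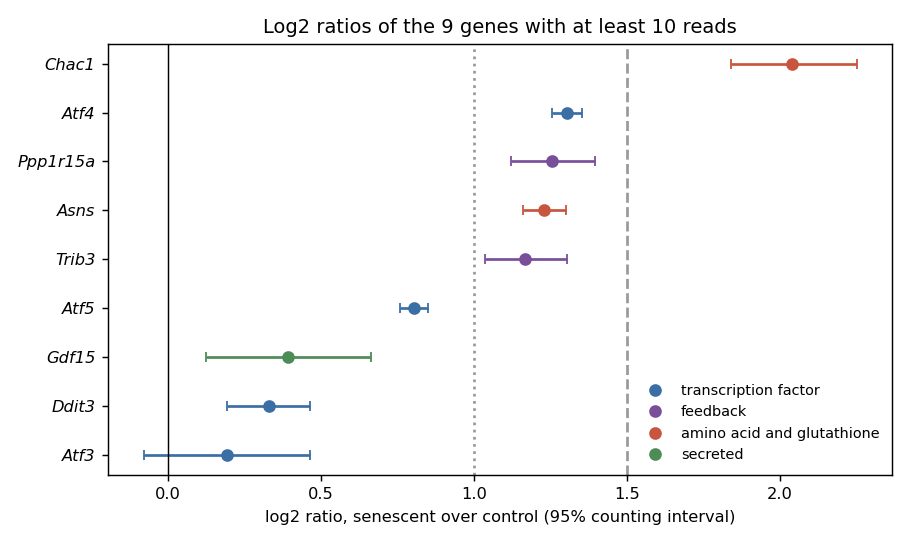
Log2 ratio of senescent over control for the 9 genes with at least 10 reads, with 95% counting intervals as bars and colours for the role of each gene. The dashed line is the threshold of 1.5 and the dotted line is 1. Chac1 is right of the dashed line, Atf4, Ppp1r15a, Asns and Trib3 lie between the lines, and the bar of Atf3 crosses 0.

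The members with a composite core in their promoter did not share 1 level of change. Chac1, Asns and Trib3 had log2 ratios of 2.04, 1.23 and 1.17, while Atf3 had 0.19 and Fgf21 stayed at the floor. The members without that core also differed, with Atf4 at 1.30, Ppp1r15a at 1.26, Atf5 at 0.80, Gdf15 at 0.39 and Ddit3 at 0.33.

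Levels can be compared between genes only per length, as CPM per kilobase of annotated exon. In control AML12 cells the order of these levels was Atf5 at 111, Atf4 at 70.3, Asns at 31.9, Ddit3 at 17.5, Trib3 at 11.0, Ppp1r15a at 7.54, Chac1 at 5.27, Gdf15 at 4.03, Atf3 at 3.69 and Fgf21 at 0. Only Gdf15 and Atf3, among neighbours in that order, had overlapping counting intervals. In senescent AML12 cells Atf5 (194) and Atf4 (174) again led, followed by Asns at 74.8, Trib3 at 24.6, Ddit3 at 22.0, Chac1 at 21.7, Ppp1r15a at 18.0, Gdf15 at 5.29, Atf3 at 4.21 and Fgf21 at 0.127.

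Atf5 and Atf4 were thus the highest per length in both libraries, and the distance between them was smaller in the senescent one. Trib3 passed Ddit3 in level, and Chac1 passed Ppp1r15a and came to the level of Ddit3 by this length. The intervals of Trib3 and Ddit3, of Ddit3 and Chac1, and of Gdf15 and Atf3 overlapped in the senescent library, so these neighbours were not set apart by counting. With the length of the longest transcript in place of all exon bases, Trib3 and Ddit3 changed places in the senescent library and the control order was the same. Ddit3 then stood at 38.9 in the senescent library against 25.9 for Trib3 and 21.7 for Chac1, so that Chac1 did not come to the level of Ddit3 by that length.

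**Figure D3:**
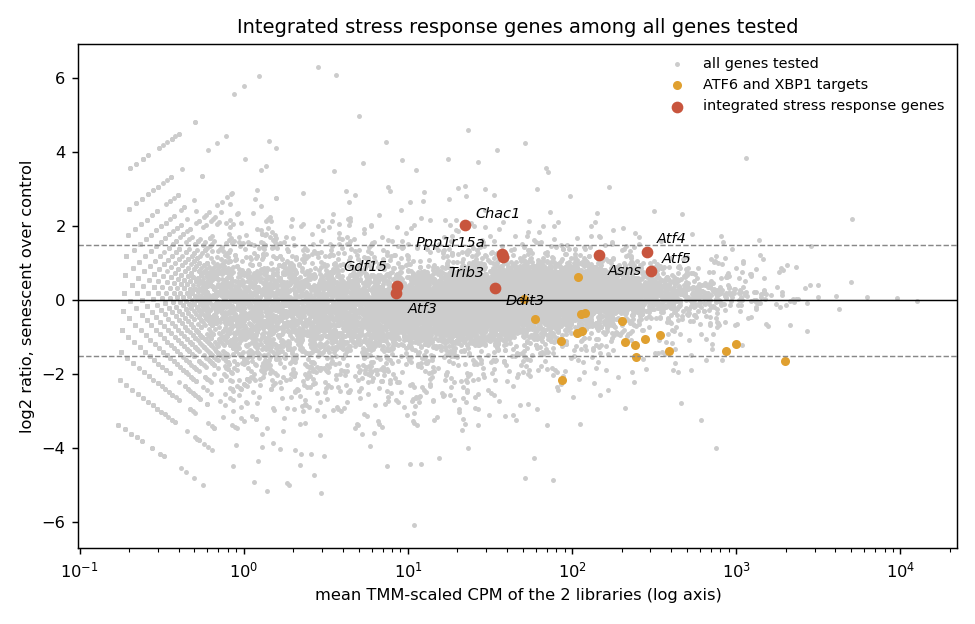
Log2 ratio of senescent over control (vertical axis) against the mean TMM-scaled CPM of the 2 libraries (log axis) for all 14383 genes tested in grey, with the 9 integrated stress response genes in red and the ATF6 and XBP1 targets in orange. Dashed lines mark log2 ratios of 1.5 and -1.5. All red points lie above 0 and 17 of 19 orange points lie below it.

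Atf5, Ppp1r15a and Fgf21 lie near each other on chromosome 7, in 0.803 Mb from chr7:44812256-45615490. The 39 other genes tested in this interval had a median log2 ratio of -0.06, from -2.80 to 0.89. Of them 0 were called higher and 3 lower, against 2.71% and 5.60% of all genes tested. Ppp1r15a, at 1.26, lay above that range and Atf5, at 0.80, near its upper end.

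Of 167 further genes in lists around the programme, 159 were tested, and 7 were called higher and 11 lower. Among all genes tested, 2.71% were called higher and 5.60% lower, and 5.09% and 9.98% were past 1 in these directions. The interval lay above 0 for 34.0% of all genes and below 0 for 34.6%. These shares, not matched for read depth, are the background for the count of every list below. The lists come from general knowledge and some share genes. The upstream end of the pathway had small differences. None of the 4 eIF2α kinases was past 1 in either direction, and the median of their log2 ratios was -0.10. Eif2ak3, the ER kinase PERK, had 2608 control and 1343 senescent reads, for a log2 ratio of -0.73 (-0.82 to -0.63). The amino acid sensor Eif2ak4, or GCN2, was at -0.23 (-0.36 to -0.09). Eif2ak1, the heme-regulated kinase, had 1684 and 1474 reads, and Eif2ak2, the RNA-activated kinase PKR, had 2238 and 1951. Their log2 ratios of 0.04 and 0.03 had intervals that held 0, and both ratios turned below 0 under total-count scaling. The kinases act through phosphorylation, which RNAseq does not measure.

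Among 9 modulators of the kinases the median was -0.21, with 1 called lower and 0 higher. That gene was Hspa5, the ER chaperone BiP, which binds PERK in unstressed cells, at 87141 control and 23935 senescent reads and a log2 ratio of -1.63 (-1.66 to -1.61). Dnajc3, the chaperone partner that inhibits PERK and PKR, was at -1.11 (-1.17 to -1.05). Gcn1l1, the ribosome-bound activator of GCN2, was at 0.37 (0.32 to 0.43).

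A list of 14 genes covered subunits of eIF2, of its exchange factor eIF2B and of the eIF2α phosphatases. It also held Eif2d, the lowest at -0.46 (-0.57 to -0.35), and another initiation factor gene outside these complexes. The list included 0 genes past 1 in either direction, and its median was 0.25. The eIF2 subunits Eif2s1, Eif2s2 and Eif2s3x lay close together at 0.59, 0.61 and 0.61. Of 20 partners and regulators of ATF4 and CHOP, 1 was called higher and 1 lower, with a median of -0.02. The gene called higher was Fosl1, an AP-1 subunit, at 1510 and 5171 reads, 4.01-fold, with a log2 interval of 1.92 to 2.09. Egln3, a prolyl hydroxylase, was called lower at -2.93 (-3.09 to -2.77). Jun, another AP-1 subunit, was at -1.49 (-1.63 to -1.36) and was not called, but passed the threshold under total-count scaling (-1.60) and upper-quartile scaling (-1.53). The C/EBP factors, which pair with ATF4, differed from each other. Cebpa was at -1.44 (-1.57 to -1.31), past the threshold under total-count scaling at -1.55, so that the list then had 3 genes lower. Cebpd was at -1.10 (-1.41 to -0.80), Cebpb at -0.30 (-0.38 to -0.23) and Cebpg at 0.14 (0.07 to 0.21).

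**Figure D4:**
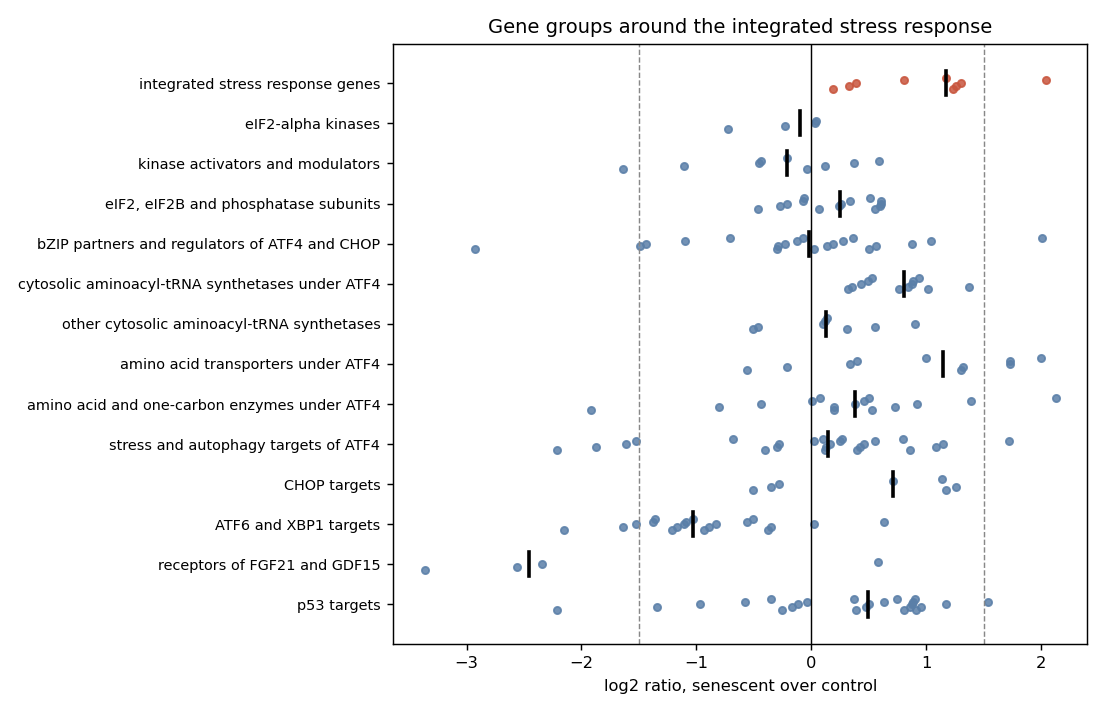
Log2 ratio of senescent over control for every tested gene of each list, 1 point per gene, with a black bar at the median of the list. Dashed lines mark 1.5 and -1.5. The integrated stress response genes, the amino acid transporters and the tRNA synthetases listed under ATF4 have medians of 1.17, 1.15 and 0.80, while the ATF6 and XBP1 targets have a median of -1.03.

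The amino acid side of the programme was mostly higher in senescent AML12 cells. Aminoacyl-tRNA synthetases charge tRNAs with their amino acids, and 12 cytosolic ones were listed as ATF4 targets. All 12 had an interval above 0, with a median log2 ratio of 0.80 and a range from 0.32 to 1.37, and 0 of them passed 1.5. Cars, for cysteine, had 3240 and 7162 reads, with its log2 ratio at 1.37 (1.31 to 1.43). Wars, for tryptophan, was at 1.02 (0.94 to 1.10) and Sars, for serine, at 0.94 (0.89 to 0.98).

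Of 8 other cytosolic synthetase genes, 6 had an interval above 0 and 2 below it, with a median of 0.13. Rars, for arginine, was the highest of them at 0.91 (0.85 to 0.96), and Vars, for valine, was at -0.51 (-0.56 to -0.46). The ranges of the 2 lists overlapped. Counted per gene with a promoter on hand, the composite core was in 5 of 8 of the first list (62.5%) and in 0 of 5 of the second. The first list was drawn as ATF4 targets, so this contrast is not independent of how the lists were made.

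Amino acid transporters listed under ATF4 gave 3 called higher and 0 lower of 10 tested, with a median of 1.15. Slc7a11, the cystine-glutamate exchanger that feeds glutathione synthesis and whose promoter stretch is printed above, had 256 control and 874 senescent reads, 3.99-fold, with a log2 interval of 1.80 to 2.21. The other 2 were Slc7a1, a carrier of arginine and lysine, with 1744 and 4942 reads and 1.73 (1.65 to 1.81), and Slc1a4, a carrier of serine and alanine, with 427 and 1212 reads and 1.73 (1.57 to 1.90). Slc3a2, the heavy chain that pairs with Slc7a11, had 15903 and 27058 reads and a log2 ratio of 1.00 (0.97 to 1.02). The glutamine carrier Slc1a5 went the other way, with 1345 and 780 reads and a log2 ratio of -0.56 (-0.69 to -0.43).

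**Figure D5:**
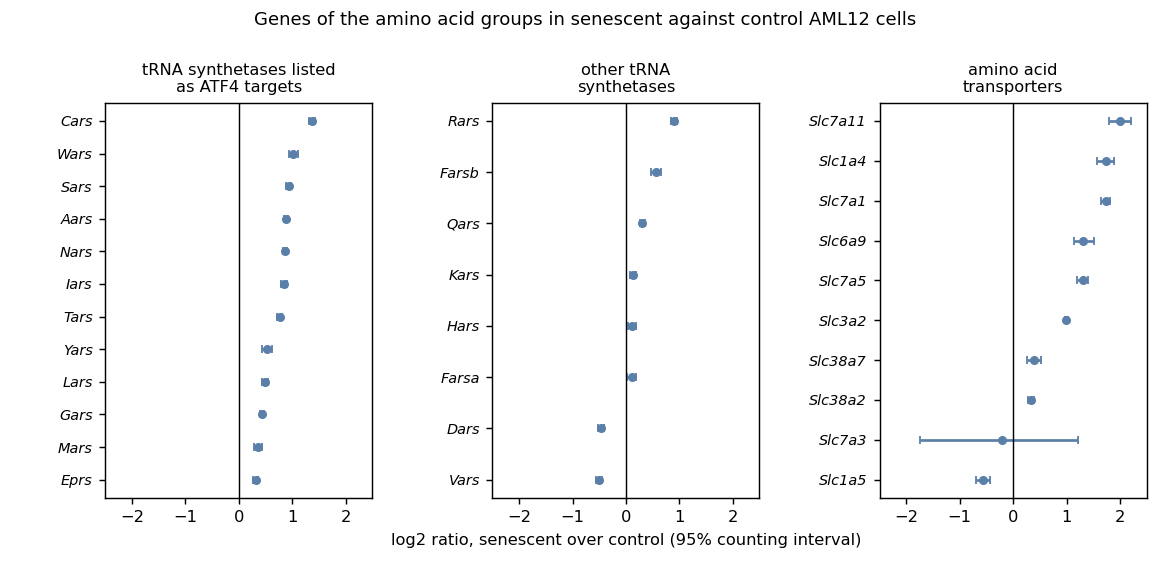
Log2 ratio of senescent over control with 95% counting intervals for the tRNA synthetases listed as ATF4 targets, the other cytosolic synthetases and the amino acid transporters, with 1 row per gene. All 12 synthetases of the first panel are right of 0, Dars and Vars of the second are left of it, and Slc7a11, Slc1a4 and Slc7a1 are the highest of the third.

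Of 15 enzymes of amino acid, one-carbon and transsulfuration metabolism, 1 was called higher and 1 lower, and the median was 0.38. Mthfd2, the mitochondrial folate dehydrogenase, had 893 control and 3333 senescent reads, for a log2 ratio of 2.13 (2.02 to 2.24). Aldh18a1, which starts proline synthesis, was at 1.39 (1.31 to 1.47). Cbs, the first enzyme of transsulfuration, had 661 and 149 reads, with its log2 ratio at -1.91 (-2.19 to -1.66). Cth, the next enzyme of the same route, was at -0.44 (-0.63 to -0.26), which was not called.

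Stress and autophagy genes under ATF4 were mixed. Of 24 tested, 1 was called higher and 4 lower, with a median of 0.15. Stc2, a secreted glycoprotein, went from 94 to 266 reads and a log2 ratio of 1.72 (1.39 to 2.09). Sqstm1, the autophagy receptor p62, was at 1.15 (1.12 to 1.18) and Eif4ebp1, a repressor of cap-dependent translation, at 1.08 (1.01 to 1.16). The 4 called lower were Ddit4, an inhibitor of mTOR, at -2.21 (-2.28 to -2.15), Ndrg1 at -1.88 (-1.92 to -1.83), Klf15 at -1.62 (-1.78 to -1.46) and Herpud1 at -1.52 (-1.58 to -1.46), whose call was lost at an assumed coefficient of variation of 0.4.

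Of 7 CHOP targets tested, 0 passed 1.5 and 3 passed 1, and 2 of those 3 are the members Trib3 and Ppp1r15a. The third was the death receptor gene Tnfrsf10b, at 1025 and 1919 reads and 1.13 (1.02 to 1.25). The pro-apoptotic genes Bbc3 and Bcl2l11 were at -0.35 (-0.47 to -0.23) and -0.50 (-0.63 to -0.38).

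Targets of the ATF6 and XBP1 arms of the unfolded protein response mostly had the opposite direction to the members. Of 19 targets tested 0 were called higher and 3 lower, 17 had an interval below 0, and the median log2 ratio was -1.03. The 3 called lower were Sdf2l1 at -2.15 (-2.27 to -2.05), Hspa5 and Herpud1. Pdia4, a disulfide isomerase, was at -1.37 (-1.42 to -1.33). Atf6 itself was at 0.63 (0.56 to 0.71). The ER stress response element was in 8 of 17 of these genes with a promoter on hand (47.1%) and 0 of the 10 members. As the list was drawn as targets of these arms, that share is not independent of the choice. Counted per window, it was in 39 of all promoters (0.119%).

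Of 7 receptor genes for the secreted members 4 were tested, with 0 called higher and 3 lower. Klb, the coreceptor through which FGF21 acts, had 886 control and 148 senescent reads, for a log2 ratio of -2.34 (-2.61 to -2.10). Fgfr2 was at -2.56 (-2.66 to -2.47) and Fgfr3 at -3.36 (-3.54 to -3.20), while Fgfr4 was at 0.58 (0.48 to 0.68). Of the GDF15 receptor genes, Gfral had 0 reads in both libraries and Ret had 0 and 3.

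Gdf15 is also a target of p53, and 24 p53 targets had a median log2 ratio of 0.49, with 1 called higher and 1 lower. The interval lay above 0 for 15 of the 24 and below 0 for 7, against 34.0% and 34.6% of all genes tested. Mdm2, which degrades p53, was called higher at 1.53 (1.48 to 1.59), and this call was lost under total-count scaling (1.43), under upper-quartile scaling and at an assumed coefficient of variation of 0.4. Zmat3 was at 1.18 (1.11 to 1.25), Eda2r at 0.95 (0.86 to 1.05) and Gtse1 at 0.91 (0.78 to 1.05). The gene called lower was Ddit4, given above, and below 0 were also the death receptor gene Fas at -1.35 (-1.57 to -1.13), Sesn1 at -0.97 (-1.40 to -0.56) and Btg2 at -0.57 (-0.69 to -0.46). Gdf15, at 0.39, lay under the median of that list.

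The 7 stellate cell and fibroblast markers summed to 0.931 control CPM and 0.363 senescent CPM, with Col1a2 and Acta2 at 0 in both libraries. Col1a1 had 21 and 1 reads and was called lower. Endothelial markers summed to 0.447 and 1.45 CPM, and Vwf, with 8 and 24 reads, was called higher. The macrophage list summed to 193 and 79.0 CPM, nearly all from Cd14, and its markers Adgre1 and Clec4f had 0 reads. The other macrophage markers went the other way from Cd14. Csf1r had 15 and 40 reads and was called higher at 1.58 (0.76 to 2.61), and Cd68 had 34 and 40 reads, with an interval that held 0. In bulk RNA, fewer cells of a kind and less RNA per cell cannot be told apart.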

How the data were processed

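AML12 cells, control and senescent, gave 1 poly(A)-selected, random-primed library each, after the RNA of 3 samples was pooled. What the authors deposited is the raw read count of each Ensembl gene. The submitters' processing notes name CASAVA, STAR, DESeq2 and edgeR and the build mm10, without versions or roles. The counting tool, the annotation and the use of strand are not given in the sources used here, and reads of overlapping genes may have been split. Each column was matched to a sample by the initial of its title, and 0 columns of per-sample values were left unused. Symbols, positions and exon lengths came from GENCODE M21 on GRCm38, the assembly of mm10, with 34490 of 35275 identifiers (97.8%) paired with a symbol. Promoter sequences came from RefSeq on GRCm38.p6.

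Counts were scaled with TMM in edgeR 4.0.16 (R 4.3.3). Log2 ratios, with a prior count of 1 in proportion to library size, and Clopper-Pearson intervals were computed in Python 3.11.15 with scipy 1.17.1, with blastn 2.17.0 for near-identical genes and matplotlib 3.10.9 for plots. Genes with 3 or fewer reads in both libraries were given no fold. With 1 library per condition edgeR and DESeq2 could not give a test. All members and eIF2α kinases were named, and of other lists up to 4 genes with the highest and 4 with the lowest log2 ratios among genes with at least 100 reads and an interval without 0. Cebpb, Cebpg, Slc3a2, Gfral and Ret fall outside this rule and were chosen after their values were seen. The members and lists were chosen with earlier results of these data known. The step that gives ratios, intervals and calls was tested on counts simulated with counting error only, and the other steps were not tested in this way. Alternatives used 3 other scalings (total counts, upper quartiles and DESeq2 1.42.0), other read minima, prior counts and thresholds, and wider intervals that assume biological variation.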

Additional observations from a re-analysis of the deposited data

How the results depend on the processing

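The 5 alternatives that can change a ratio, 3 scalings and 2 prior counts, gave 45 values for the 9 members. Of these 42 stayed within the counting interval of the main value, 3 moved outside it under total-count scaling, and none changed sign. Total-count scaling gave a members' median log2 ratio of 1.06. Chac1 was called under every alternative run, with log2 ratios from 1.93 to 2.04, and a threshold of 1 gave 5 members higher. Among all genes, a minimum of 100 reads gave 141 higher and 395 lower, a prior count of 5 gave 259 higher, and an assumed coefficient of variation of 0.4 gave 243 higher. A threshold of 1 gave 732 higher and 1435 lower, and a threshold of 2 gave 219 and 460. For the other genes of the pathway lists these thresholds gave 17 higher and 22 lower, and 2 higher and 6 lower.

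Leaving out a replicate was not run, with 1 library per condition. No paired analysis was possible because each condition has 1 library. The intervals cover counting error only. At an assumed coefficient of variation of 0.1, 6 of 9 members kept an interval above 0, without Ddit3 and Gdf15, and at 0.4 this held for Chac1 alone. The share of all genes with such an interval was not counted at these settings, so these counts have no background beside them. Depth limits Fgf21, with 0 and 3 reads, and Atf3, whose interval held 0. Columns were matched to conditions by initials.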
